A study of Mus musculus with 6 samples.

Results

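Pparg, its lipid uptake target Cd36 and 8 further genes of acylglycerol synthesis and lipid droplets were followed in the liver of mice that express human NPC1L1 in hepatocytes. The 10 genes are Pparg, Cd36, Mogat1, Mogat2, Cidea, Cidec, Plin2, Plin4, Fabp4 and G0s2, out of 37074 genes represented on the array. That total also counts transcript and locus names that had no match to a gene symbol. They were picked by name, with their L1-Tg against WT values already known, so their own differences are described here and carry no test. NPC1L1 is a cholesterol importer. Wild-type mouse liver has little of it, whereas human liver carries it on the bile canaliculus, where it takes cholesterol back from bile. Total RNA of whole liver was labelled with Cy3 and hybridised to 6 one-colour arrays, 3 of L1-Tg mice and 3 of WT mice, and each array held RNA pooled from 2 or 3 animals. L1-Tg mice were hemizygous for the transgene of strain B6;D2-Tg(APOE-NPC1L1)20Lqyu/J, in which an APOE promoter drives human NPC1L1, and came from a line crossed back to C57BL/6J for at least 8 generations. WT mice were their littermates without the transgene. All animals were males, which the methods place at 6 to 12 weeks of age, and both groups ate a control-fat diet (CFD), a standard chow, with no drug. The comparison asks how the livers differed before any high-fat feeding.

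In the liver, Pparg encodes the nuclear receptor PPAR-gamma, which forms a dimer with RXR and is best known as the regulator of fat storage in adipocytes. It is scarce in lean liver and rises in fatty liver of mice, where its known targets include fatty acid uptake (Cd36), the monoacylglycerol route to triglyceride (Mogat1) and proteins that coat or enlarge lipid droplets (Cidea, Cidec, Plin4). Plin2 and G0s2 also answer to PPAR-alpha, the main PPAR of hepatocytes, and Fabp4 is a lipid chaperone of adipocytes, macrophages and endothelium.

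PPAR dimers bind a pair of AGGTCA half-sites with 1 base between them, and this element was searched on both strands from 250 bases before to 50 bases after the gene's start in RefSeq's promoter windows (GRCm38.p6), allowing mismatches among its 12 half-site letters. Windows were given for 7 of the 10 members, 10 windows in all. Mogat2, Fabp4 and Cidea had none. At most 2 mismatches were found in 3 member windows, those of Cd36, Mogat1 and Plin2, and in 3.86% of all 32851 windows. These 3 stretches are shown because they hold the closest matches among the members. They are written along the gene's strand, with the matched element in capitals.
Cd36, chr5:17835927-17835979, minus strand: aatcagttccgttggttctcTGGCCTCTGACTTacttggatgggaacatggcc
Mogat1, chr1:78510989-78511041, plus strand: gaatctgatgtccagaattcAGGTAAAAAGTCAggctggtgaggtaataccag
Plin2, chr4:86670252-86670304, minus strand: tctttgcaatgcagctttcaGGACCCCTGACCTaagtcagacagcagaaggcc
The match begins 63 bases before the start in Cd36, 51 in Mogat1 and 225 in Plin2, and it lies on the strand opposite to the gene in Cd36 and Plin2. The 3 Pparg windows, which stand for its alternative starts, had 4 mismatches each, a level reached by 79.8% of all windows. A single AGGTCA, the half-site of the element, was present anywhere in the window in 4 member windows (of Cd36, Plin2 and Pparg). The share of all windows was 16.3%. The half-site need not lie within the matched element. In Cd36 and in the Pparg window at chr6:115362099-115362398 it did not. A match of letters is a description of the window and does not show a site in use.

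All values below are log2 signals relative to the 75th percentile of the array, and each probe is compared with itself across arrays. Between 53.1% and 59.2% of probe spots were well above background on an array and no spot was saturated. The arrays of a group correlated at 0.985 to 0.994 over all genes, and those of different groups at 0.979 to 0.992. The 8 hepatocyte markers (Alb, Ttr and others) were well above background on all 6 arrays, with a summed linear signal of 5796 to 7177 in L1-Tg and 6411 to 7145 in WT pools. In bulk liver, fewer cells of a type and less RNA per cell cannot be told apart. All arrays sat on 1 slide, with WT in row 1 and L1-Tg in row 2, so genotype and row cannot be told apart. The Npc1l1 probe belongs to the mouse gene, so the level of the transgene was not checked here.

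Of the 10 members, 9 were well above background on all 6 arrays. In the L1-Tg mean, 7 were higher and 2 lower, with a median log2 difference of 0.42, whereas the median of all 22336 genes tested was -0.03 and 42.9% of them were higher. Aligning arrays on their median in place of the 75th percentile moved the median of all genes to 0.09 and the members' split to 8 higher and 1 lower, since Plin4 then came to 0.05. The groups did not overlap for 3 members (Pparg, Cd36 and Mogat2), all higher in L1-Tg, against 7.22% of all genes tested. Mogat1 joined them with quantile normalization, the array median or normexp background correction. None was lower without overlap, beside 8.7% of all genes. Limma called 0 of the 9, beside 29 of all genes, or 0.13%, and 3 of the 9 had an unadjusted p under 0.05, beside 1982 of all genes or 8.87%. Since the members were picked on this contrast, nothing is read from these counts.

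**Figure D1:**
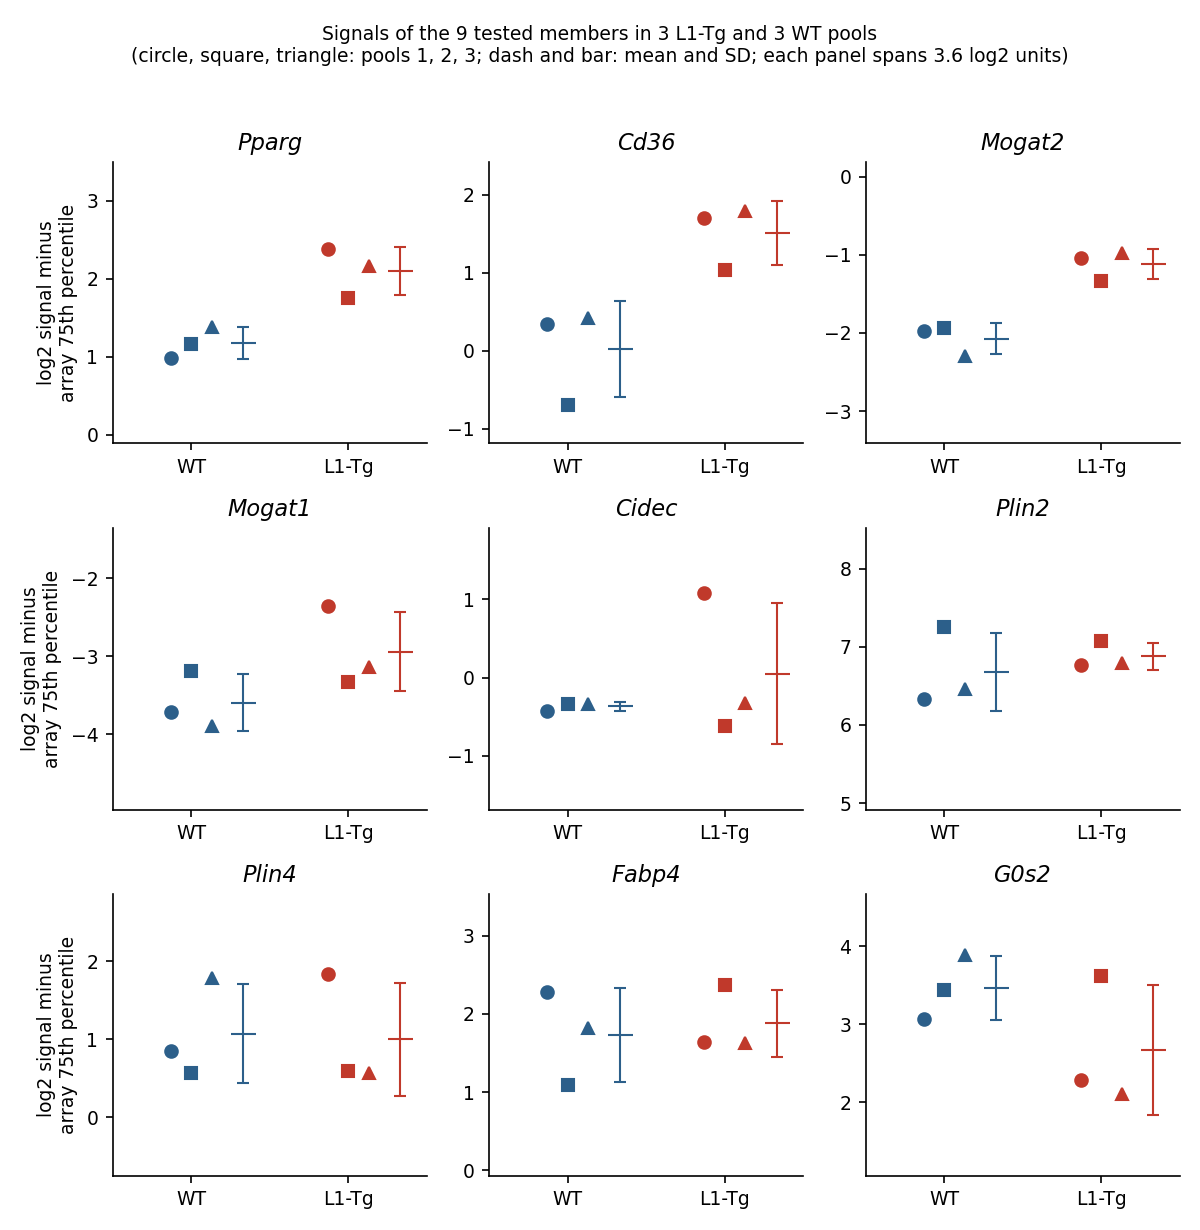
Log2 signal minus the array's 75th percentile for the 9 members well above background on all arrays, with 1 point per pool (circle, square and triangle for pools 1, 2 and 3) and the mean ± SD of each group beside it. Pparg, Cd36 and Mogat2 separate the groups, while the other 6 members overlap.

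Pparg itself had log2 signals of 2.37, 1.76 and 2.16 in L1-Tg pools 1, 2 and 3 and of 0.98, 1.16 and 1.38 in WT pools 1, 2 and 3. Every L1-Tg pool lay above every WT pool, and the lowest L1-Tg pool was pool 2. The means were 2.10 ± 0.31 and 1.18 ± 0.20 (SD, n = 3 pools each), a difference of 0.92 (limma standard error 0.19) or 1.89-fold. The probe is printed 10 times on each array, and the coefficient of variation among those spots, which is technical, was 2.58% to 4.43%. Leaving out 1 pool at a time kept the difference between 0.78 and 1.09.

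Cd36, a scavenger receptor that takes up long-chain fatty acids, showed the largest difference among the members. Its log2 signals were 1.70, 1.03 and 1.79 in L1-Tg pools and 0.35, -0.69 and 0.41 in WT pools. The groups did not overlap, and WT pool 2 stood below the other WT pools. The difference was 1.48 (standard error 0.35) or 2.80-fold, and 0.703% of the genes tested had a larger absolute difference. Without WT pool 2 it was 1.13, and without L1-Tg pool 2 it was 1.72.

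Cd36 is also carried by macrophages, endothelium and adipocytes. The 9 macrophage and Kupffer cell markers measured summed to 150 to 175 in L1-Tg and 94.5 to 175 in WT pools on the linear scale, and each was well above background on every array. Of the 9, 8 were higher in the L1-Tg mean, with a median difference of 0.29, limma called 0, and the unadjusted p was under 0.05 for 0. In L1-Tg pools 1, 2 and 3 the sums were 175, 150 and 163, with Cd36 at 1.70, 1.03 and 1.79. In WT pools 1, 2 and 3 they were 94.5, 127 and 175, with Cd36 at 0.35, -0.69 and 0.41. The 10 endothelial markers summed to 103 to 105 in L1-Tg and 97.5 to 106 in WT pools. Within each group, Pparg ranked the pools in the same order as the macrophage sums. The part of these cell types in the Cd36 and Pparg differences was not tested.

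Mogat2 and Mogat1 encode monoacylglycerol acyltransferases, which make diacylglycerol from monoacylglycerol. Mogat2 had log2 signals of -1.04, -1.34 and -0.98 in L1-Tg pools and -1.98, -1.94 and -2.30 in WT pools. The groups did not overlap and each was tight, with a range of 0.36 in either. The difference was 0.95 (standard error 0.15) or 1.94-fold. Mogat1 had log2 signals of -2.36, -3.33 and -3.14 in L1-Tg pools and -3.71, -3.19 and -3.89 in WT pools. Here WT pool 2 lay above L1-Tg pool 2, and L1-Tg pool 1 stood apart at the top. The difference was 0.66 (standard error 0.30), and without L1-Tg pool 1 it came to 0.37. The groups did not overlap without L1-Tg pool 2 or without WT pool 2. Both probes were dim, and normexp background correction gave a difference of 0.61 for Mogat2 and of 0.28 for Mogat1.

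The difference index of the study's methods, the difference of the group means over the sum of the 2 SDs on the linear signal, exceeded 0.7 for 4 members. It was 2.46 for Mogat2, 1.69 for Pparg, 1.60 for Cd36 and 0.703 for Mogat1, which lies just above the limit. The next member, Cidec, had 0.50. By the same index 30.3% of all 37052 genes passed in either direction and 8.6% were higher, a background that included genes too dim to be tested in limma. Without scaling the arrays, Mogat1 was below the limit and the other 3 stayed above it. The same held without L1-Tg pool 1, without WT pool 1 and without WT pool 3.

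**Figure D2:**
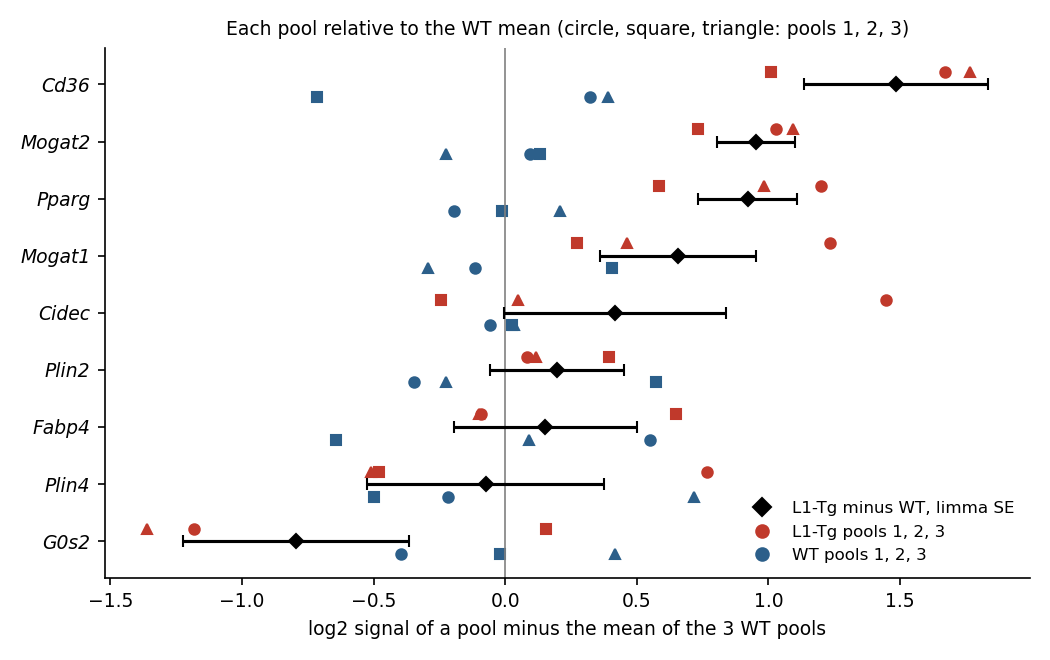
Log2 signal of each pool minus the mean of the 3 WT pools for the 9 members, ordered by the difference between groups. Black diamonds with bars give L1-Tg minus WT with its limma standard error, from 1.48 in Cd36 down to -0.80 in G0s2, and L1-Tg pool 2 (square) is the lowest L1-Tg pool in the 5 upper genes.

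The members that coat or enlarge lipid droplets overlapped between the groups. Cidec encodes a protein that fuses droplets into larger ones. By its brighter probe it had log2 signals of 1.08, -0.62 and -0.32 in L1-Tg pools and -0.43, -0.34 and -0.34 in WT pools. L1-Tg pool 1 alone stood high, and the other L1-Tg pools lay on both sides of the WT pools. The difference of 0.42 (standard error 0.42) became -0.10 without that pool. The dimmer Cidec probe showed the same shape, with -1.56 in L1-Tg pool 1 against -2.97 and -2.33 in the other L1-Tg pools, and its difference of 0.30 became -0.06. Without L1-Tg pool 2 the groups did not overlap in the brighter probe, at a difference of 0.75.

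Plin2, the main droplet coat protein of hepatocytes, had log2 signals of 6.76, 7.07 and 6.80 in L1-Tg pools and 6.33, 7.25 and 6.46 in WT pools. WT pool 2 was the highest of all 6, so the groups overlapped. The difference was 0.20 (standard error 0.25), and without WT pool 2 it was 0.48 with no overlap. Plin4, another droplet coat protein, had log2 signals of 1.84, 0.59 and 0.56 in L1-Tg pools and 0.85, 0.57 and 1.79 in WT pools. One pool of each genotype was high, L1-Tg pool 1 and WT pool 3. The difference was -0.07 (standard error 0.45) and ranged from -0.49 without L1-Tg pool 1 to 0.28 without WT pool 3.

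G0s2, which inhibits the triglyceride lipase encoded by Pnpla2, went the other way from Pparg. It had log2 signals of 2.28, 3.62 and 2.10 in L1-Tg pools and 3.07, 3.44 and 3.88 in WT pools. L1-Tg pools 1 and 3 lay below every WT pool, and L1-Tg pool 2 lay within the WT range. The difference was -0.80 (standard error 0.43), and it was -1.27 without L1-Tg pool 2, when the groups did not overlap. Cidea, which like Cidec enlarges droplets, was well above background in WT pool 2 and on no other array, so no fold is given.

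Fabp4 had log2 signals of 1.64, 2.38 and 1.63 in L1-Tg pools and 2.28, 1.08 and 1.82 in WT pools. The groups overlapped, with a difference of 0.15 (standard error 0.35) that turned to -0.10 without L1-Tg pool 2 and to -0.17 without WT pool 2, and the 2 highest pools were L1-Tg pool 2 and WT pool 1. The same 2 pools were the highest in 4 of the 10 genes on the adipocyte list, Adipoq, Retn, Cfd and Plin1. Adipoq, which encodes adiponectin, and Retn, which encodes resistin, were well above background in those 2 pools and on no other array. Cfd, the adipocyte protease adipsin, had a log2 signal of 0.80 in L1-Tg pool 2 and 1.35 in WT pool 1, against -4.00 to -1.08 in the other 4. Plin1, the droplet coat of adipocytes, was well above background in WT pool 1 alone, and Lep (leptin) on no array. The other 5 genes of the list did not peak in these 2 pools. Lipe was highest in WT pool 2, Pck1 in WT pool 3, and Adrb3 and Aqp7 in L1-Tg pool 1, while Slc2a4 was well above background on 4 of the 6 arrays.

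Over the whole adipocyte list of 10 genes the summed linear signal was 279 to 394 in L1-Tg and 416 to 483 in WT pools. Most of it came from Pck1, which hepatocytes also express. Without Pck1, a choice made after the values were seen, it was 2.13 to 3.84 and 2.44 to 5.80. The part of adipocyte RNA in the Fabp4 and Cd36 values was not tested.

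**Figure D3:**
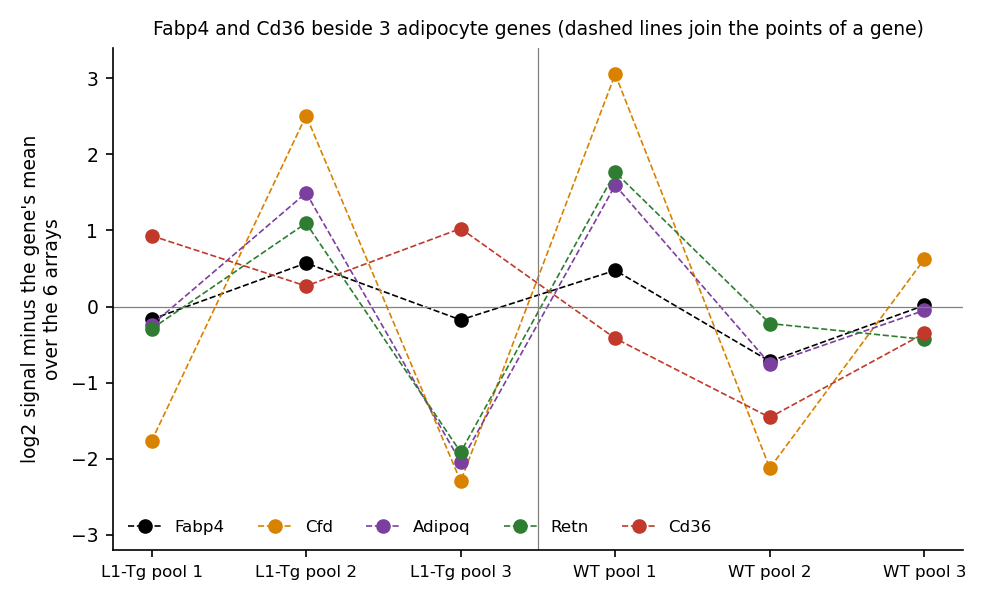
Log2 signal of Fabp4, Cd36 and 3 adipocyte genes on each array, minus the gene's mean over the 6 arrays. Fabp4 (black), Cfd, Adipoq and Retn peak in L1-Tg pool 2 and WT pool 1. The 3 adipocyte genes were picked after their values were seen. Lipe, Pck1, Adrb3, Aqp7 and Slc2a4 of the same list were highest in other pools. Adipoq and Retn were well above background only in L1-Tg pool 2 and WT pool 1. Cd36 (red) is above its mean in the 3 L1-Tg pools.

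The members were next compared with Pparg across the 6 arrays, as a description with no test, because the points share 1 slide and fall into 2 genotypes. Over all 6 arrays Pearson's r with Pparg was 0.88 for both Cd36 and Mogat2, 0.77 for Mogat1, 0.63 for Cidec, 0.26 for Plin4, 0.19 for Plin2, -0.09 for Fabp4 and -0.69 for G0s2. The median of the 8 members was 0.44, beside -0.15 for all genes tested, whose 5th and 95th percentiles were -0.83 and 0.81. An r as high as that of Mogat2 was reached by 2.23% of genes, and as high as that of Cd36 by 2.31%. These 2 members lay above the 95th percentile and the remaining 6 lay between the 5th and the 95th. Since Pparg differed between the groups, a pooled r is partly set by the genotype difference of the other gene. The members were picked with that difference known, so nothing is read from these ranks.

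Within the groups, as deviations from each group's mean, the order changed. The r of Mogat2 dropped to 0.18, a value reached by 32.3% of genes, and that of Cd36 to 0.46, reached by 16.9%. Cidec and Plin4 had the highest within-group r, at 0.75 each, and L1-Tg pool 1 was the high pool in both as it was in Pparg. Mogat1 had 0.50, Plin2 -0.22, G0s2 -0.44 and Fabp4 -0.60. The median of the 8 members was 0.32 within groups, beside -0.08 for all genes. The macrophage and Kupffer cell markers, which are not members, had a within-group r with Pparg of 0.51 to 0.85. That of the hepatocyte markers was -0.93 to -0.36. The part of cell composition in the likeness to Pparg was not tested. Counted by array, Cd36 and Plin4 lay on the same side of their group mean as Pparg on 5 of 6 arrays, Cidec on 4, Mogat1, Mogat2 and G0s2 on 3, Fabp4 on 2 and Plin2 on 1. Without L1-Tg pool 1 the pooled r was -0.06 for Cidec and -0.27 for Plin4, the median of the 8 was 0.15, and r stayed at 0.85 for both Cd36 and Mogat2. Without WT pool 2 it was 0.68 for Plin2 and -0.66 for Fabp4, and without WT pool 1 it was -0.27 for Plin2 and 0.27 for Fabp4.

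**Figure D4:**
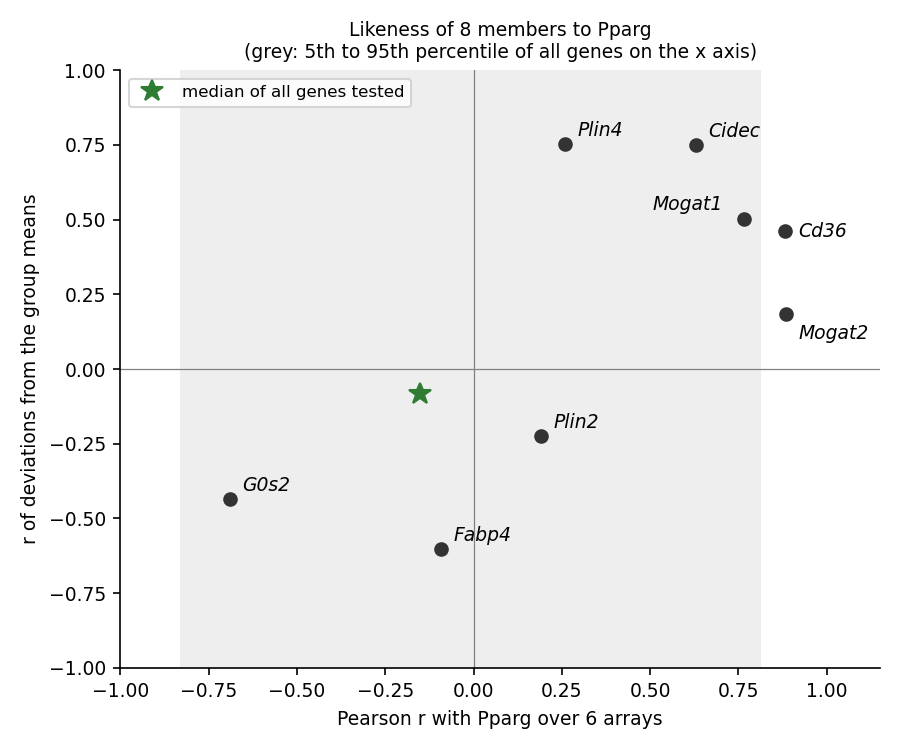
Pearson r with Pparg over the 6 arrays (x axis) against r of the deviations from the group means (y axis) for 8 members. Cd36 and Mogat2 lie right of the grey band, which runs from the 5th to the 95th percentile of all genes, Cidec and Plin4 are highest on the y axis at 0.75, and Fabp4 and G0s2 are negative on both.

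The 5 named genes most like Pparg over the 6 arrays were Pdcl3, Abhd4, Traf3, Snx14 and Snx10, each at an r of 0.99, and an r of at least 0.9 was found for 1.70% of all genes. Traf3 (a signalling adaptor of innate immune receptors) was higher in L1-Tg by 0.57 (standard error 0.11), and Snx14 by 0.07 (standard error 0.08).

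Other genes tied to Pparg were taken from lists written by function, with earlier results of these data known. Their tests are limma's, adjusted over all genes, and serve as a description. Of 21 other known Pparg targets measured, 0 passed in either direction, 10 had a higher and 11 a lower L1-Tg mean, and the unadjusted p was under 0.05 for 3, a share to be read against 8.87% of all genes, as for the lists below. Directions, here and below, are to be read against the 42.9% of all genes that were higher, a share that depends on the scaling. Me1 (malic enzyme, a source of NADPH for lipid synthesis) had log2 signals of 4.35, 4.53 and 4.88 in L1-Tg pools and 3.80, 3.94 and 3.97 in WT pools, which did not overlap. Its difference was 0.68 (standard error 0.15, limma adjusted p = 0.346). The further targets with the smallest p were lower in the L1-Tg mean: Pck1 (gluconeogenesis) by -0.46, Ephx2 (an epoxide hydrolase) by -0.40 and Angptl4 (an inhibitor of lipoprotein lipase) by -0.37. The list was not limited to targets known from liver, and its genes were not sorted by receptor. Its median was -0.08, or 0.04 when arrays were aligned on their median.

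In the list of 23 other lipid droplet genes, 0 passed, 9 had a higher and 14 a lower mean, and the unadjusted p was under 0.05 for 1. That gene was Fitm1, whose endoplasmic reticulum protein promotes the storage of triglyceride in droplets. It had log2 signals of 1.28, 1.10 and 1.75 in L1-Tg pools and -1.23, -0.31 and -0.23 in WT pools. No pool of one group reached the other, and the difference of 1.97 (standard error 0.31, limma adjusted p = 0.178) exceeded that of every member. Its r with Pparg was 0.94 over all arrays and 0.59 within groups. The next by p were Rab18 (a droplet GTPase) at 0.20 (standard error 0.09), whose groups did not overlap, Mest at 0.42 (standard error 0.21) and Plin5, a droplet coat of oxidative tissue, at -0.34 (standard error 0.19). Fitm2, the relative of Fitm1, differed by 0.02 (standard error 0.11). The adipose triglyceride lipase gene Pnpla2, whose product G0s2 inhibits, differed by -0.24 (standard error 0.13). The median of the list was -0.04, or 0.08 with arrays aligned on their median.

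Among 24 partners and modifiers of PPAR-gamma, 0 passed, 8 had a higher and 16 a lower mean, and the unadjusted p was under 0.05 for 2. The 4 with the smallest p were Klf15 (-0.33), the coactivator genes Ppargc1b (-0.27) and Ppargc1a (-0.71), and the coregulator gene Tle3 (0.50). The list of fatty acid uptake and triglyceride synthesis had 0 of 32 past the test, 12 higher and 20 lower, and 2 under an unadjusted p of 0.05. These 2 were Scarb1, the receptor for high-density lipoprotein, at -0.38 and Lipc, hepatic lipase, at -0.31. Fabp2 (-0.56) and Gpat3 (0.52) followed. The medians of both lists, -0.08 and -0.10, became 0.04 and 0.02 with arrays aligned on their median.

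Targets of PPAR-alpha, which govern fatty acid oxidation, served as the PPAR list closest in kind. Of 28 measured, 3 were higher and 25 lower, where 42.9% of all genes were higher. The median was -0.19 beside -0.03 for all genes, and it stayed below 0 under each scaling. It was -0.10 without WT pool 2, and -0.07 with arrays aligned on their median, where that of all genes was 0.09. Limma called 0, and 5 had an unadjusted p under 0.05, all lower, beside 8.87% of all genes in either direction. The thioesterase genes Acot3 and Acot1 differed by -0.62 (standard error 0.20) and -0.73 (standard error 0.25), Acot4 by -0.25 (standard error 0.10), and Ehhadh, of peroxisomal oxidation, by -0.48 (standard error 0.17). Plin2 and G0s2, named above as also answering to PPAR-alpha, differed by 0.20 and -0.80. The other members were not sorted by receptor. In the lipogenesis list of 16 genes, 9 were higher and 7 lower with 0 past the test and a median of 0.04, and 2 had an unadjusted p under 0.05, Me1 at 0.68 and Elovl5 (fatty acid elongation) at -0.55, with Fads2 (-0.39) and Pklr (0.30) next. The difference between these lists and the members was not tested, since the members were picked on their values.

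**Figure D5:**
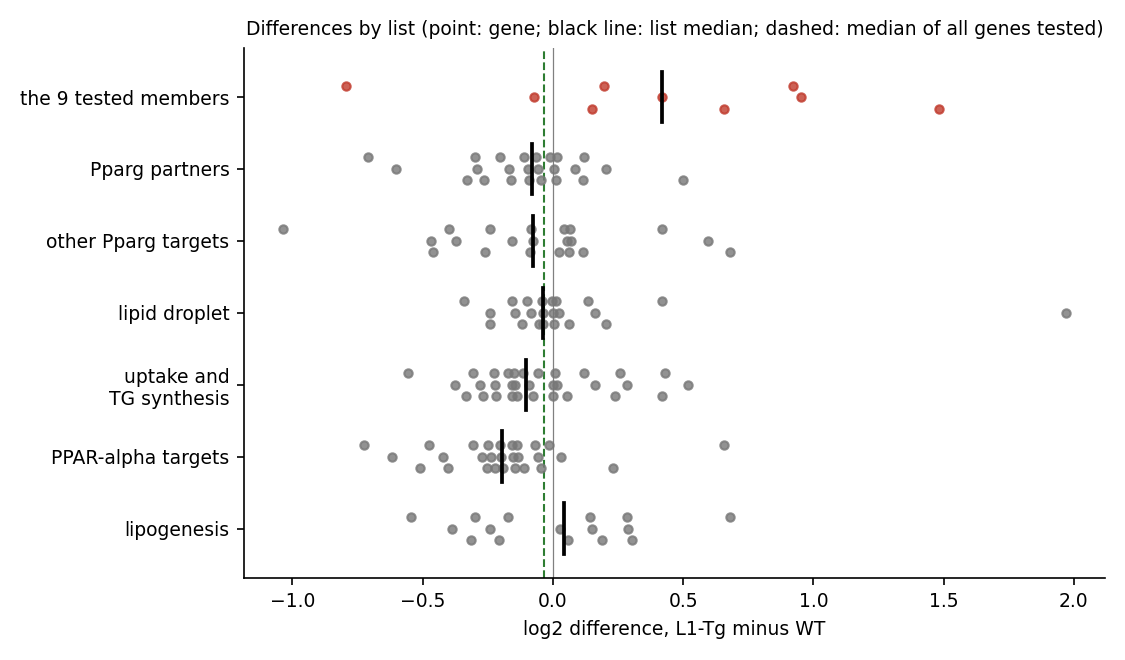
Log2 difference, L1-Tg minus WT, of each gene tested (points) in 7 groups of genes, with the group's median (black line) and the median of all genes tested at -0.03 (dashed). The members lie to the right with a median of 0.42, the PPAR-alpha targets to the left at -0.19, and Fitm1 stands apart at 1.97 in the lipid droplet list.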

How the data were processed

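The arrays were Agilent SurePrint G3 Mouse 8x60K slides. The authors scanned them and ran Agilent Feature Extraction (version 10.10.1.1). Each spot of the deposited files has a processed signal, a linear intensity without local background or spatial trend and not scaled across arrays. Their matrix of intensity values equals this signal times 1 factor per array and was used as an alternative. Control spots were left out, non-uniform spots were set as missing, and spots of a probe were averaged. The 75th percentile of each array was subtracted from log2 signals. Probes were named through RefSeq (27235 of 28685 matched). Of all 55681 probes, those without a match kept the array's own name, and each such name was counted as a gene. A gene was read from its brightest probe among those that exceeded background on every array of L1-Tg or of WT, which gave 22336 genes. The groups were compared in limma 3.58.1 (R 4.3.3) with Benjamini-Hochberg adjustment over all of them at 0.05. The same test was run on simulated data, in which genes varied independently. A gene that it does not call may still differ. The p-values set the difference between groups against limma's moderated spread between pools, whose number limits the precision. Each pool held 2 or 3 animals, so the spread between single animals was not measured. Members and lists were chosen with earlier results of these data known. Named are the 10 members, genes called or with the 4 smallest p in each list, the 5 genes most like Pparg, Npc1l1, and markers. Fitm2, Pnpla2 and the adipocyte genes were singled out after their values were seen.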

Additional observations from a re-analysis of the deposited data

How the results depend on the processing

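The number of members called was 0 and that of list genes called was 0 under every alternative run. Pparg, Cd36 and Mogat2 separated the groups in each of them, leaving out any 1 pool included. Which other members overlapped depended on the scaling (Mogat1) or on 1 pool (Mogat1, Cidec, G0s2, Plin2). Of all genes, limma called 10 without the filter on dim probes, 11 with the replicate number as a block, 0 in the ordinary two-sample test (1841 with an unadjusted p under 0.05) and 15 to 35 when 1 pool was left out (35 without WT replicate 3), against 29. The replicate number was also the column on the slide in both groups. Over all genes, deviations of same-numbered arrays correlated at -0.16, 0.11 and 0.02, and 2 of 6 arrays correlated best with their own number. Single genes varied. With the number as a block the standard error was 0.13 for Cd36, against 0.35 without it, and 0.40 for Fabp4, against 0.35. The index above 0.7 held for 6042 genes without scaling, and an index above 1 for 4089. Its split of 3188 higher and 8024 lower turned to 4716 and 3457 with quantile normalization, 5390 and 2274 with the array median, 3028 and 3014 without scaling, 3699 and 4960 with normexp, and 4259 and 6570 in the deposited matrix. The cause was not tested. Fabp4 changed sign without L1-Tg pool 2 (-0.10) or WT pool 2 (-0.17). The lipid droplet list's median also changed sign with quantile normalization (0.01), without scaling (0.02), in the deposited matrix (0.01) and without WT pool 1 (0.03), and that of lipogenesis without L1-Tg pool 3 (-0.21), WT pool 2 (-0.04) or WT pool 3 (-0.34).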
